A study of Homo sapiens with 16 samples.

Results

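The regions described here are the highest-signal TOP2B intervals of PC9, a lung cancer cell line whose growth depends on mutant EGFR, a receptor tyrosine kinase. Members were chosen by their measured maximum. In each of 4 deposited interval lists, an interval of chromosomes 1 to 22 was a member when the maximum of its called peak was at or above the 99th percentile of its list, which gave 586 members of 43959 intervals. TOP2B was mapped by CUT&RUN, in which an antibody tethers a nuclease that releases the DNA around its target for sequencing. The lists came from METTL7A knockout cells treated with osimertinib (92 members of 7168 intervals), treated wild-type cells (106 of 9632), untreated knockout cells (191 of 12141) and untreated wild-type cells (197 of 15018). Treated cells were kept under osimertinib, an inhibitor of mutant EGFR, for 6 to 8 weeks at doses raised from 100 nM. Each list was made from 2 replicate libraries, so each condition has 1 value and neither a spread over replicates nor a test of conditions can be given. The labels do not say whether the replicates were separate cultures or whether the knockout was 1 clone, and the METTL7A locus was not examined.

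TOP2B is the beta isoform of DNA topoisomerase II, an enzyme that cuts both strands of a DNA segment, passes another segment through the break and reseals it. It is known for relieving torsion at promoters and at the anchors of chromatin loops, where it is found with CTCF and cohesin. METTL7A belongs to the methyltransferase-like family of proteins. In short-read assays of many kinds, very high coverage is also known at satellite repeats beside centromeres and at copies of ribosomal DNA, for which lists of excluded regions exist. No such list and no repeat or gene annotation of GRCh37, the build of these files, was used here, so the repeat and gene content of the regions was not examined. Positions are given on GRCh37, counted from 1.

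The threshold fell on few steps of signal, so ties made the members more than 1% of each list. Maxima within a list are whole multiples of 1 step, and the lowest member maximum was 17 steps in treated knockout, 22 in treated wild type, 10 in untreated knockout and 22 in untreated wild type. In signal units these were 0.645, 1.18, 0.723 and 0.863, and the highest maxima just outside were 0.607, 1.12, 0.651 and 0.824, each 1 step lower. Members made up 1.28% of the treated knockout list, 1.1% of the treated wild-type list, 1.57% of the untreated knockout list and 1.31% of the untreated wild-type list. Because signal units differ between lists, maxima are given below as multiples of the median maximum over the intervals of chromosomes 1 to 22 of the same list. The threshold lay at 2.13, 2, 2 and 1.83 times that median, in the order of lists given above. The median itself was only 8, 11, 5 and 12 steps in the same order, so multiples of it are coarse.

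Many members were pieces of the same called peak. Here a called peak means all intervals of a list with 1 common area, maximum and location of that maximum, so a peak cut into pieces counts as 1 called peak. The 92 treated knockout members came from 42 called peaks, the 106 treated wild-type members from 32, the 191 untreated knockout members from 183 and the 197 untreated wild-type members from 67. In treated wild type 1 called peak gave 15 members, and in untreated wild type 1 gave 16. In untreated knockout no called peak gave more than 2. Members are therefore counted below both as intervals and as called peaks, and intervals of the same called peak are not independent.

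The members fell into a short run of extreme peaks and a tail just above the threshold, which was longest in untreated knockout. The highest maximum was 251 times the list median in treated knockout, 193 times in treated wild type, 220 times in untreated knockout and 240 times in untreated wild type. Called peaks at 10 or more times the median numbered 10 in treated knockout, 10 in treated wild type, 12 in untreated knockout and 8 in untreated wild type. Called peaks at 3 or more times numbered 17 of 42 members, 19 of 32, 22 of 183 and 15 of 67 in the same order of lists. Most member called peaks were thus below 3 times in every list but treated wild type. The other member called peaks lay between the threshold and 3 times the median. In untreated knockout, 103 of the 183 member called peaks sat exactly at the threshold of 10 steps, against 11 of 42 in treated knockout, 5 of 32 in treated wild type and 17 of 67 in untreated wild type.

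**Figure D1:**
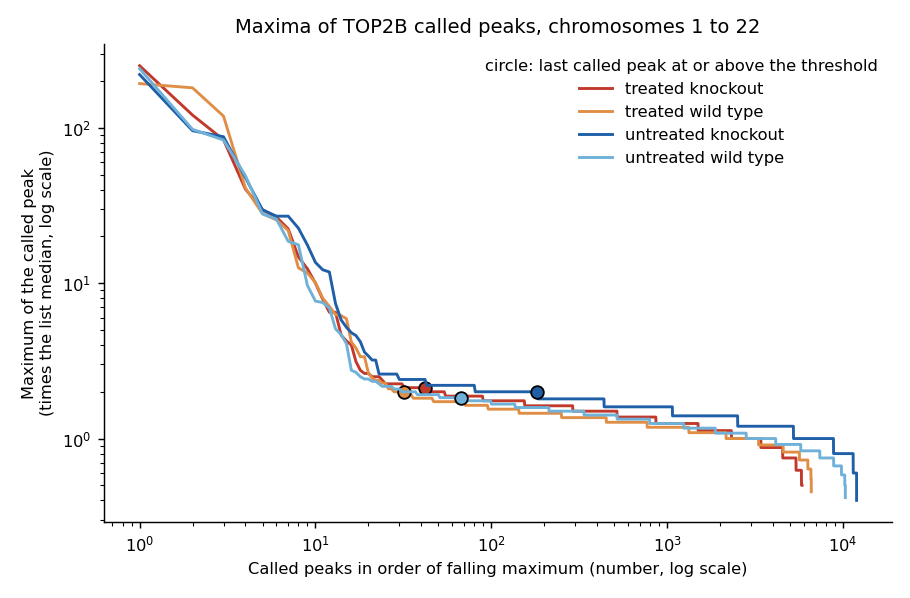
Maximum of each TOP2B called peak (times the median maximum of its list, log scale) against its place in order of falling maximum (log scale), 1 line per list; circles mark the last called peak at or above the threshold. The 4 lines drop from 193 to 251 times the median at the first called peak to about the threshold of 1.83 to 2.13 times. They end at 0.4 to 0.5 times at the last called peak.

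Merged over the lists, the members covered 391 loci, of which 20 held a member in all 4 lists, 8 in 3 lists, 29 in 2 lists and 334 in 1 list. The 20 shared loci lay on 11 chromosomes, with 5 on chromosome 1 and 4 on chromosome 16, and covered 141700 bp. They held the top of every list: the first 16 called peaks of treated knockout, the first 15 of treated wild type, the first 18 of untreated knockout and the first 15 of untreated wild type all lay in them. The highest member outside them reached 3.13 times the median in treated knockout, 4.18 times in treated wild type, 3.6 times in untreated knockout and 2.75 times in untreated wild type. The maximum chose these loci, so their height is a description. A locus is counted by overlap of intervals, and some neighbouring loci share a called peak in 1 or more lists.

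The same 3 loci led all 4 lists. At 61968401 to 61971350 of chromosome 7 the maximum was 251 times the list median in treated knockout, 181 times in treated wild type, 220 times in untreated knockout and 240 times in untreated wild type. At 121484051 to 121485500 of chromosome 1 it was 121 times in treated knockout, 119 times in treated wild type, 95.8 times in untreated knockout and 97.7 times in untreated wild type. At 58776151 to 58780200 of chromosome 6 it was 83.8 times in treated knockout, 193 times in treated wild type, 87.6 times in untreated knockout and 83.4 times in untreated wild type. The chromosome 7 locus ranked first in every list but treated wild type, where the chromosome 6 locus ranked first. In treated wild type the chromosome 6 locus stood apart from its value in the other lists, which lay close together.

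The chromosome 6 locus differed in the same way when set against the chromosome 7 locus of the same list, a ratio that does not depend on the list median. Its maximum was 0.334 of that of the chromosome 7 locus in treated knockout, 1.06 in treated wild type, 0.398 in untreated knockout and 0.347 in untreated wild type. Between the wild-type lists the osimertinib value was 2.31 times the untreated one by list median and 3.07 times by the chromosome 7 locus. Under osimertinib, the knockout value was 0.435 of the wild-type one by list median and 0.313 by the chromosome 7 locus. In treated and untreated knockout the values differed by a factor of 0.956 by list median and 0.839 by the chromosome 7 locus. With 1 list per condition, no spread is known against which these differences could be set.

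Chromosome 16 held a cluster of shared loci between 46385801 and 46436100. The locus at 46416251 to 46430550 reached 40.2 times the list median in treated knockout, 40.9 times in treated wild type, 47.8 times in untreated knockout and 49.1 times in untreated wild type. The locus at 46385801 to 46410800 reached 29.8, 28, 29.6 and 25.8 times in the same order of lists. These values lay within 1.22-fold and 1.15-fold of each other. At 46430951 to 46436100 the values were 14.8 times in treated knockout, 10.1 times in treated wild type, 11.8 times in untreated knockout and 49.1 times in untreated wild type. The last value belongs to a called peak that also covers the neighbouring locus and has its maximum there, so it is not a value of this locus.

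At 4 further shared loci the lists differed by up to 1.77-fold. At 42384801 to 42385850 of chromosome 10 the maximum was 26.6 times the list median in treated knockout, 25.5 times in treated wild type, 27 times in untreated knockout and 27.9 times in untreated wild type. At 91852651 to 91853250 of chromosome 1 the values were 12.4, 12.5, 13.6 and 18.6 times in the same order. At 9825401 to 9827800 of chromosome 21, a chromosome with 1, 3, 1 and 6 intervals in the 4 lists, they were 10, 11.6, 12.2 and 17.7 times. At 156186001 to 156186900 of chromosome 1 they were 7.87, 6.27, 7.4 and 9.67 times. At all of these loci the untreated wild-type list had the highest value. The other 10 shared loci lay between 2 and 8 times the list median in every list.

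**Figure D2:**
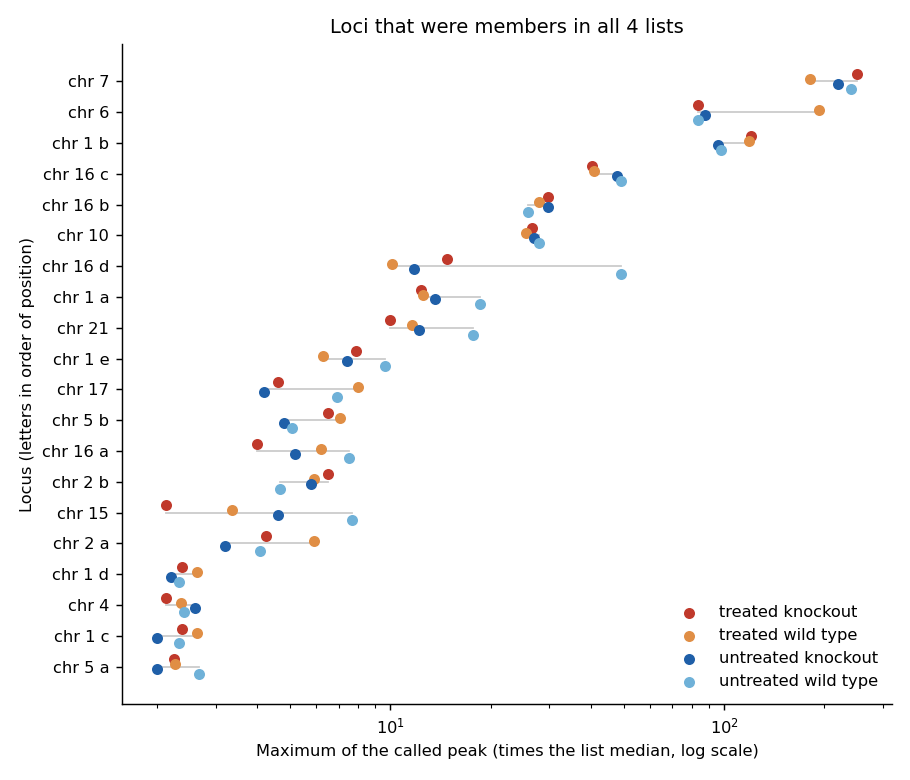
Maximum of the highest called peak (times the list median, log scale) at each of the 20 loci that were members in all 4 lists, 1 point per list; letters number loci of a chromosome by position and grey lines span the lists. Most points of a locus lie close together; chr 6 is highest in treated wild type at 193 times, and the outlying point of chr 16 d is a called peak shared with chr 16 c.

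At most shared loci the maxima of a comparison lay within 1.5-fold of each other, as they did in most pairs of called peaks that were not members. In untreated knockout against untreated wild type, 17 of the 20 loci differed by less than 1.5-fold, with a median log2 ratio of -0.17. In treated knockout against treated wild type, 16 did, with a median of -0.07. In treated against untreated wild type, 15 did, with a median of -0.08, and in treated against untreated knockout, 19 did, with a median of 0.10. A change of 1 step in a list median would shift every log2 ratio of a comparison alike. These small medians are therefore not read as differences between lists. Among pairs of overlapping called peaks that were members in neither list, the share within 1.5-fold was 82.1% of 5997 pairs, 76.9% of 810, 77.7% of 1927 and 79.6% of 2682, in the order of these comparisons. Closeness within 1.5-fold is therefore not read as a trait of the shared loci. The tallies of shared loci include 4 that take a value from a called peak with its maximum in the neighbouring locus. These are the chromosome 16 locus named above, 1 on chromosome 2 and 2 near 145 Mb of chromosome 1. Where the maximum lay inside the locus in both lists, the loci within 1.5-fold were 16 of 18, 14 of 18, 12 of 16 and 18 of 19 in the same order of comparisons, with medians of -0.11, -0.022, -0.18 and 0.09. Scaling by the chromosome 7 locus subtracts the log2 ratio of that locus from every value, so the medians over all 20 became -0.048, -0.55, 0.33 and -0.089, with the sign turned in both comparisons of treatment.

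Of the 16 shared loci with their own maximum in every list, 8 had the lower value in knockout with and without osimertinib by list median, and 2 had the higher value in both. By the chromosome 7 locus, whose own ratio moves all treated values the same way, these were 7 and 0. No such tally was made for called peaks that were not members, so these counts are not read as an effect of the knockout. Among pairs that were members in neither list, the median log2 ratio of knockout over wild type was -0.059 untreated and 0.012 treated, by list median. The 3 loci given here, lower in both by either scaling, were singled out after their values were seen. At 41399601 to 41401600 of chromosome 17 the maximum was 4.62 times the list median in treated knockout against 8 times in treated wild type, and 4.2 times in untreated knockout against 6.92 times in untreated wild type. At 21315151 to 21316350 of chromosome 15 it was 2.13 times in treated knockout against 3.36 times in treated wild type, and 4.6 times in untreated knockout against 7.67 times in untreated wild type. The chromosome 15 locus was also lower under osimertinib than without it, at 0.439 of the untreated value in wild type and 0.462 in knockout by list median. At 33237201 to 33241300 of chromosome 16 the maximum was 4 times in treated knockout against 6.18 times in treated wild type, and 5.2 times in untreated knockout against 7.5 times in untreated wild type.

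Many shared loci had their maximum at nearly the same bases in all lists and were narrow for their height, though not by span. Area divided by maximum gives the width in bp that a flat peak of the same height would need, here called the equivalent width. At the chromosome 7 locus it was 679 bp in treated knockout, 641 bp in treated wild type, 636 bp in untreated knockout and 629 bp in untreated wild type. At 156186001 to 156186900 of chromosome 1 it was 275, 272, 278 and 272 bp in the same order, although the heights differed. The start of the region of the maximum agreed between the 4 lists within 50 bp, the grid of the files, at 9 of the 20 loci and within 300 bp at 14. Shared loci had a median equivalent width of 1034 bp in treated knockout, 1222 bp in treated wild type, 878 bp in untreated knockout and 672 bp in untreated wild type. A higher maximum lowers this width. By span from first to last base, called peaks at shared loci had medians of 2200, 2850, 2600 and 2200 bp in the same order. Called peaks that were not members had median spans of 1250, 1350, 1700 and 3000 bp. Of the 20 loci, 6 lay within 100000 bp of the longest gap between intervals of their chromosome, over all 4 lists, and 4 of them bordered it. Stretches before the first or after the last interval of a chromosome were not counted. The 6 loci were on chromosomes 1, 4, 16 and 21, and those on chromosome 16 were neighbours, so they are not separate cases. The same distance held for 0.231% of the 43373 intervals that were not members. Those are intervals of single lists and not merged loci, so these shares are not compared. Chromosomes 4 and 21 held only 122 and 11 intervals over all 4 lists.

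The remaining members were broader than the shared loci in every list but untreated knockout. Their median equivalent width was 1744 bp in treated knockout, 2785 bp in treated wild type, 858 bp in untreated knockout and 6287 bp in untreated wild type. For called peaks that were not members the medians were 1240, 2986, 920 and 2700 bp in the same order. In untreated wild type, 65.3% of these remaining called peaks were cut into several intervals, against 27% of the called peaks that were not members. All member called peaks together held 7.81% of the summed area of the treated knockout list, 3.59% in treated wild type, 6.81% in untreated knockout and 4.15% in untreated wild type. The shared loci alone held 6.65, 2.9, 4.19 and 1.63% of the area in the same order.

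**Figure D3:**
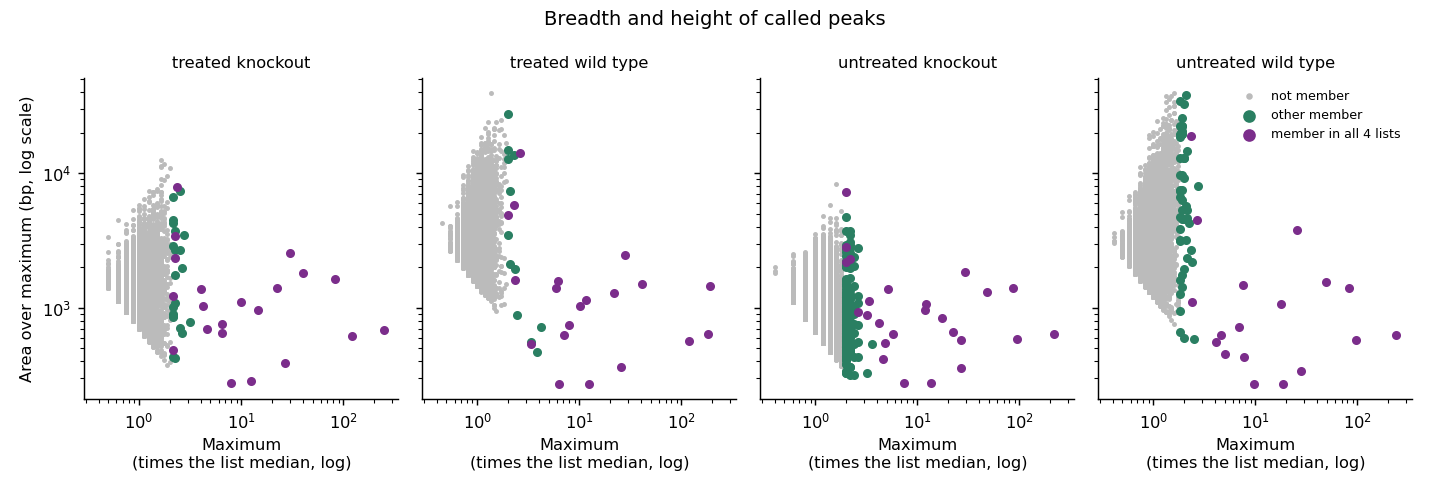
Area divided by maximum (bp, log scale) against maximum (times the list median, log scale) for every called peak of the 4 lists; purple points lie at loci that were members in all 4 lists, green points are the other members and grey points are not members. Purple points reach far to the right at widths near or under the grey ones, while green points stay next to the threshold and reach 27573 bp in treated wild type and 38192 bp in untreated wild type.

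By median interval width, members exceeded the rest of their list in 3 of the 4 lists. The median width was 1350 bp against 1150 bp for other intervals in treated knockout, 1200 against 1200 bp in treated wild type, 2250 against 1650 bp in untreated knockout and 5000 against 2600 bp in untreated wild type. With each called peak counted as 1 over its whole span, the median width of members was 2 times that of the rest in treated knockout, 3.72 times in treated wild type, 1.35 times in untreated knockout and 5.8 times in untreated wild type. The region of the maximum lay inside the interval for 41.3% of members and 49.6% of other intervals in treated knockout, and for 29.2 and 29.8% in treated wild type. It did so for 91.1 and 88% in untreated knockout and for 32.5 and 48.2% in untreated wild type. Width, area and maximum come from the same called peaks, so these values describe the members and test nothing.

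Member called peaks outside the shared loci were few in the treated lists, with 21 in treated knockout and 12 in treated wild type, against 158 in untreated knockout and 49 in untreated wild type. A chromosome or window without members in a treated list is therefore read beside its share of all called peaks. Member called peaks fell in 27 windows of 5 Mb in treated knockout, 21 in treated wild type, 60 in untreated knockout and 32 in untreated wild type, of 295, 316, 317 and 330 windows with a called peak. Without the shared loci these were 11, 8, 49 and 19 windows. Chromosomes 13, 18 and 22 held no member in any list, but also at most 0.193, 0.466 and 1.99% of the called peaks of a list. Their lack of members is therefore not read as a trait of these chromosomes. The windows with the most member called peaks were at 55 to 60 Mb of chromosome 19 in treated knockout, with 5, at 55 to 60 Mb of chromosome 19 in untreated knockout, with 21, and at 55 to 60 Mb of chromosome 7 in untreated wild type, with 11. In treated wild type the first was 45 to 50 Mb of chromosome 16, with 4 called peaks, all at shared loci. In the order named, these windows held 11.9, 11.5, 16.4 and 12.5% of the member called peaks of their lists. They held 3.99, 4.09, 0.718 and 0.091% of all called peaks.

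Chromosome 7 carries EGFR, whose position was not looked up here, and the members beside the chromosome 7 locus named above lay mostly near 55 Mb. The window at 55 to 60 Mb held 3 member called peaks in treated knockout, 0 in treated wild type, 18 in untreated knockout and 11 in untreated wild type. These were 7.14, 0, 9.84 and 16.4% of the member called peaks, where the window held 1.83, 0.561, 1.81 and 0.718% of all called peaks. The window at 50 to 55 Mb held 1, 0, 13 and 3 in the same order of lists, of 217, 31, 336 and 203 called peaks. Treated wild type had 37 called peaks at 55 to 60 Mb and 31 at 50 to 55 Mb, none of which reached the threshold, and apart from the shared locus the highest on the chromosome was at 1.82 times the list median. At 55490251 to 55510750, a member locus of 3 lists, the maximum was 2.25 times in treated knockout, 1.73 times in treated wild type, 2.2 times in untreated knockout and 2.75 times in untreated wild type.

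On chromosome 19 the members lay between 52208251 and 58558700. There were 6 member called peaks in treated knockout, 0 in treated wild type, 28 in untreated knockout and 12 in untreated wild type. These were 14.3, 0, 15.3 and 17.9% of the member called peaks, where chromosome 19 held 7.36, 6.93, 7.56 and 5.27% of all called peaks. As intervals they were 25% of the members in treated knockout, 14.7% in untreated knockout and 29.4% in untreated wild type, against 8.59, 7.59 and 5.97% of all intervals. The 25% in treated knockout was 14.8% at the 98th percentile and 0% with the top 0.5% as members. It was 11.2% with called peaks counted as 1 and the percentile taken over called peaks. The highest called peak of the chromosome in treated wild type was at 1.73 times the list median. At 56288101 to 56318450 the maximum was 2.13 times in treated knockout, 1.73 times in treated wild type, 2.6 times in untreated knockout and 1.83 times in untreated wild type.

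Chromosome 20 held a lower share of the members than of the intervals in every list. It held 20.8% of the intervals of treated knockout and 1.09% of its members, and 5.85% of the intervals of treated wild type and none of its members. In the untreated knockout list the chromosome had 20.8% of intervals and 13.6% of members, and in the untreated wild-type list 17.7 and 11.2%. By called peaks the members numbered 1 of 1209 in treated knockout, 0 of 433 in treated wild type, 25 of 2476 in untreated knockout and 3 of 1475 in untreated wild type. These were 0.0827, 0, 1.01 and 0.203%, where members were 0.719, 0.485, 1.53 and 0.65% of called peaks over the whole lists. The 0 in treated wild type, a list with few members outside the shared loci, is not read as a trait of the chromosome. The 22 members of untreated wild type were pieces of only 3 called peaks, so the share by intervals rests on few peaks. The member of treated knockout lay at 29651651 to 29652250, at 2.63 times the list median.

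Chromosome 14 had 0 member called peaks of 329 in treated knockout, 0 of 131 in treated wild type, 16 of 846 in untreated knockout and 4 of 351 in untreated wild type. Over the whole lists, members were 0.719, 0.485, 1.53 and 0.65% of called peaks in the same order, and on this chromosome they were 0, 0, 1.89 and 1.14%. The highest called peak of chromosome 14 reached 1.88 times the list median in treated knockout and 1.36 times in treated wild type, below the thresholds of 2.13 and 2. Chromosome 11 had 6 member called peaks of 674 in untreated knockout, or 0.89%, at up to 2 times the list median, and none in the other lists.

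Chromosome 17 held 17.9% of the members and 11% of all intervals in treated wild type. In the other lists these were 1.09 and 0.865% in treated knockout, 1.57 and 0.832% in untreated knockout and 1.52 and 3.04% in untreated wild type. By called peaks, treated wild type had 4 of 32 members on chromosome 17, or 12.5%, near the 10.5% of all its called peaks. Of its 19 member intervals there, 18 were pieces of 3 called peaks between 21216701 and 22251800, and the called peak with its maximum near 21.2 Mb reached 2.27 times the list median. At the same locus, 21236651 to 21251900, the maximum was 1.5 times in treated knockout, 2.6 times in untreated knockout and 1.92 times in untreated wild type. On chromosome 2 of treated wild type, 16 members at 222262601 to 224810450 came from 2 called peaks at 2 times the median.

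**Figure D4:**
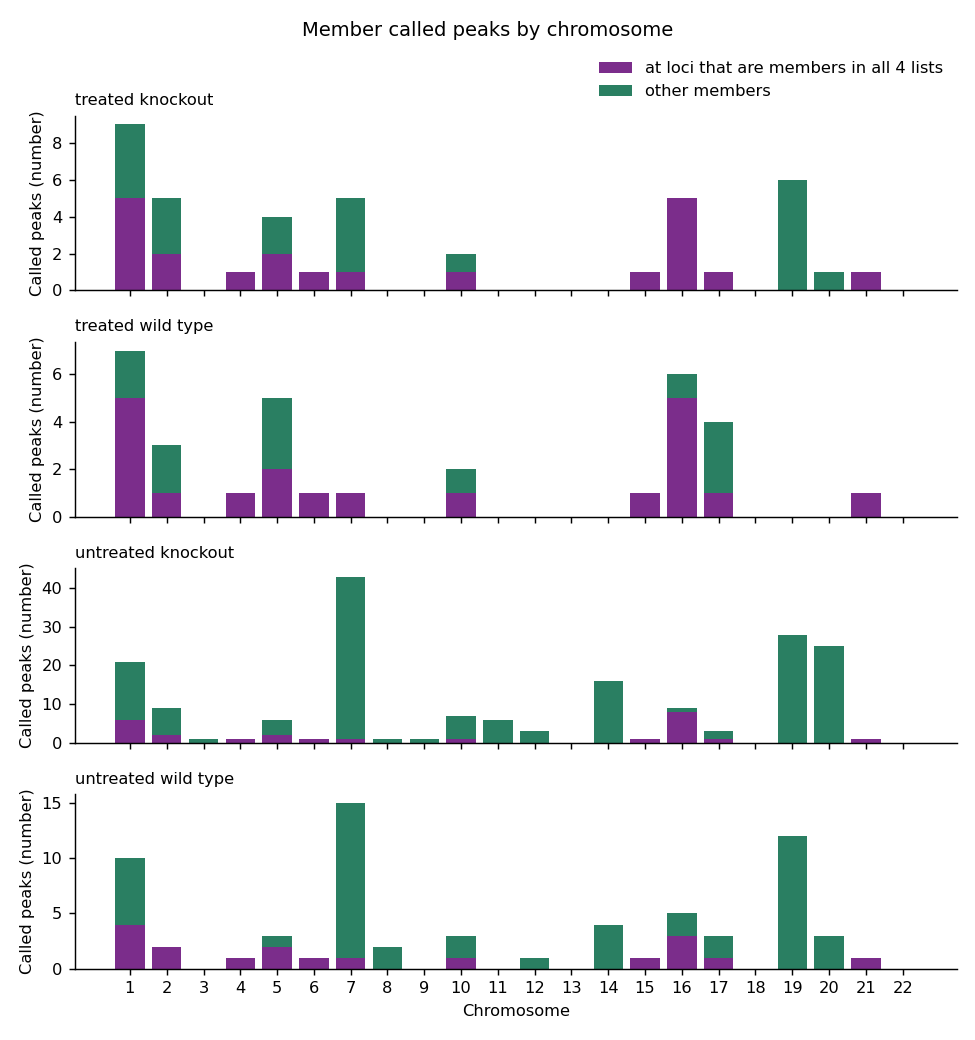
Number of member called peaks on each of chromosomes 1 to 22 in the 4 lists, split into those at loci that were members in all 4 lists (purple) and other members (green); the vertical scales differ between panels. Chromosomes 7, 19 and 20 hold 43, 28 and 25 of the 183 in untreated knockout and 1, 0 and 0 of the 32 in treated wild type. They hold 11.2, 7.56 and 20.7% of all called peaks in untreated knockout and 4.15, 6.93 and 6.56% in treated wild type.

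Near 49.4 Mb of chromosome 5, small members lay beside a shared locus, and some lists had no interval at them. At 49433951 to 49435400 the maximum was 3.13 times the list median in treated knockout, 4.18 times in treated wild type and 3.6 times in untreated knockout, and untreated wild type had no interval there. At 49429801 to 49430800 it was 3.82 times in treated wild type, 2.2 times in untreated knockout and 1.83 times in untreated wild type, with no interval in treated knockout. At 49436651 to 49437500 it was 2.13 times in treated knockout and 2.6 times in untreated knockout, with no interval in either wild-type list. The neighbouring shared locus at 49438251 to 49440550 had 6.5 times in treated knockout, 7.09 times in treated wild type, 4.8 times in untreated knockout and 5.08 times in untreated wild type. Where an interval is missing, the list gives no value, and signal below the call may still be there.

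Whether a member had a counterpart in another list was not used to choose it. A counterpart is an interval of the other list that overlaps by at least 1 bp, and shares carry exact Clopper-Pearson 95% intervals that cover counting error only. These treat intervals as independent, which pieces of 1 called peak are not, so they may be too narrow. A called peak has a counterpart when any of its intervals has one. In the comparison of genotypes without drug, 152 of 191 untreated knockout members had a counterpart in untreated wild type, 79.6% (73.2 to 85.1), where the share over all intervals of the list was 53.2%. Of the untreated wild-type members 169 of 197 had one in untreated knockout, 85.8% (80.1 to 90.3), against 34.6% of all intervals. Without the shared loci the member shares were 76.5 and 83.7%. By called peaks 148 of 183 untreated knockout members had a counterpart, 80.9%, against 53.4% of all called peaks. In untreated wild type 62 of 67 did, 92.5%, against 34.6%. Without the shared loci the shares by called peaks were 77.8 and 89.8%.

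Between genotypes under osimertinib many of the members with a counterpart lay at shared loci. Of the treated knockout members 53 of 92 had a counterpart in treated wild type, 57.6% (46.9 to 67.9), where the share over all intervals was 14%. Of the treated wild-type members 75 of 106 had one in treated knockout, 70.8% (61.1 to 79.2), against 10.5% of all intervals. By called peaks 32 of 42 treated knockout members had a counterpart, 76.2% (60.5 to 87.9), against 14.7% of all called peaks. In treated wild type 29 of 32 did, 90.6% (75 to 98), against 11%. Without the shared loci 20 of 56 treated knockout members, 35.7% (23.4 to 49.6), and 29 of 58 treated wild-type members, 50% (36.6 to 63.4), had a counterpart. By called peaks these were 11 of 21, 52.4% (29.8 to 74.3), and 9 of 12, 75% (42.8 to 94.5). Because the shared loci were chosen for members in all lists, leaving them out lowers these shares by that choice.

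In the comparisons of treatment, the share of treated members with an untreated counterpart was above that of untreated members with a treated one in both genotypes. In wild type, 99 of 106 treated members had an untreated counterpart, 93.4% (86.9 to 97.3), against 28.7% of all intervals. In the other direction 107 of 197 untreated wild-type members had a treated counterpart, 54.3% (47.1 to 61.4), against 15.1% of all intervals. In knockout, 83 of 92 treated members had an untreated counterpart, 90.2% (82.2 to 95.4), against 42.5%, and 118 of 191 untreated members had a treated one, 61.8% (54.5 to 68.7), against 22.6%. By called peaks the wild-type shares were 31 of 32 treated, 96.9%, and 54 of 67 untreated, 80.6%, against 29 and 17.7% of all called peaks. In knockout they were 39 of 42, 92.9%, and 116 of 183, 63.4%, against 41.1 and 22.8%. The treated lists are shorter than the untreated ones, which bears on both directions, and its part in these shares was not tested.

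**Figure D5:**
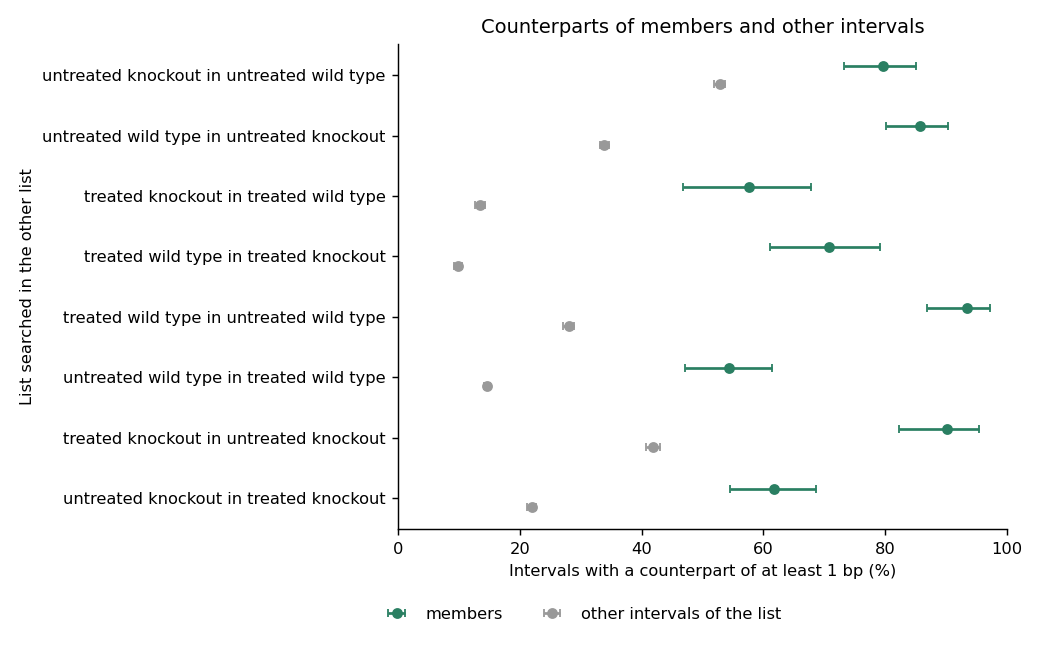
Share of intervals (%) of each list with a counterpart of at least 1 bp in the other list of the comparison, for members (green) and for the other intervals of the list (grey), with exact 95% intervals for counting error. Member shares run from 54.3 to 93.4% and lie above those of the other intervals in all 8 pairs.

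Members with a counterpart in all 3 other lists were above the share over all intervals in each list. The numbers were 49 of 92 members in treated knockout, where 7.42% of all intervals did, 68 of 106 in treated wild type (5.74%), 57 of 191 in untreated knockout (4.61%) and 97 of 197 in untreated wild type (4.21%). Members with no interval of any other list were 1 in treated knockout, where this was true of 30% of all intervals, 3 in treated wild type (64.7%), 31 in untreated knockout (39.7%) and 17 in untreated wild type (52.3%). Members are wider than other intervals in most lists, and a wide interval overlaps more easily. When the midpoint base of the interval had to lie in an interval of the other list, member shares were 71.2% against 43.9% of other intervals for untreated knockout in untreated wild type, and 28.4 against 5.9% for untreated wild type in treated wild type.

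Counterparts of members had a higher median percentile in their own list than those of other called peaks in all 8 directions compared. Where a called peak overlapped several of the other list, the highest percentile among them was taken. A broad called peak can overlap more of them. The median span of members outside the shared loci was 17500 bp in untreated wild type and 2250 bp in untreated knockout. For called peaks that were not members it was 3000 and 1700 bp. The part of breadth was not tested. Outside the shared loci, the counterparts of untreated knockout members had a median percentile of 95.9 among the called peaks of untreated wild type, against 84.9 for the counterparts of called peaks that were not members. For the counterparts of untreated wild-type members in untreated knockout the medians were 97.4 and 67.6. For treated knockout in treated wild type they were 98.2 and 73.6, with 11 member called peaks, and for treated wild type in treated knockout 93.1 and 51, with 9. For treated wild type in untreated wild type they were 99.4 and 66.3, and for treated knockout in untreated knockout 95.6 and 67.6. In the reverse directions they were 94.7 and 58.6 for untreated wild type in treated wild type, and 88.2 and 67.4 for untreated knockout in treated knockout. Of these member called peaks outside the shared loci, 25 of 123 had at least 1 counterpart that was a member for untreated knockout in untreated wild type. The numbers were 1 of 11 for treated knockout in treated wild type, 6 of 11 for treated wild type in untreated wild type and 6 of 91 for untreated knockout in treated knockout.

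The place of the maximum was shared at the shared loci and less so elsewhere. Where a called peak had several counterparts, the one with the nearest maximum was taken. For untreated knockout in untreated wild type, the regions of the maximum lay within 50 bp of each other for 16 of 25 called peaks at shared loci, 16 of 123 other members with a counterpart (13%) and 18.2% of the 6231 called peaks with a counterpart that were not members. For treated knockout in treated wild type the numbers were 16 of 21, 5 of 11 and 19.2% of 826. For treated wild type in untreated wild type they were 15 of 20, 4 of 11 and 21.5% of 1884, and for treated knockout in untreated knockout 13 of 21, 8 of 18 and 26.2% of 2365.

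The highest members without a counterpart were at up to 4.18 times the list median, below the first 15 called peaks of their lists but above some of the lower shared loci. In treated knockout, those missing from treated wild type were led by called peaks at 116034901 to 116041400 of chromosome 1 and at 29651651 to 29652250 of chromosome 20, both at 2.63 times the list median. In treated wild type, those missing from treated knockout were on chromosome 5 at 49429801 to 49430650, with 3.82 times the median, on chromosome 17 at 22250801 to 22251800, with 2.45 times, and on chromosome 2 at 224809451 to 224810450, with 2 times. Treated wild type had 1 member called peak without a counterpart in untreated wild type, at 49434001 to 49434500 of chromosome 5, with 4.18 times. The highest of untreated knockout missing from untreated wild type lay at 49433951 to 49435400 of chromosome 5, with 3.6 times. Treated knockout had 3 without a counterpart in untreated knockout, all on chromosome 2, at 184862401 to 184863650 (2.5 times), 173258151 to 173263400 (2.25 times) and 241382201 to 241386500 (2.13 times).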

How the data were processed

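TOP2B and histone H2A were profiled by CUT&RUN in 16 samples, 2 replicates for each of 8 groups; the 8 H2A samples were not analysed here. Per the submitters' processing notes, which name GRCh37, peaks involved SEACR and bedtools 2.30, alignments Bowtie2 2.4.2 and SAMtools 1.16, and other steps deepTools 3.5.1; caller mode and duplicate handling are not given in the sources. The deposited files are 4 headerless interval lists in the layout of a SEACR peak, each from both replicates of a group. The area of a called peak is a deposited score, its signal summed over bases, and the maximum is a deposited signal of unstated scaling, so the depth of the libraries is unknown.

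Percentiles (linear interpolation), overlaps, merged loci and exact Clopper-Pearson 95% intervals were computed with Python 3.11.15, NumPy 2.4.6, pandas 2.3.3 and SciPy 1.17.1, and the functions were tested on simulated intervals. Maxima were whole multiples of 1 step per list to a tolerance of 0.05 steps. The members and rules were chosen with earlier results of these data known. Positions named were the 5 highest called peaks of each list, the 10 highest of the loci shared by all 4 lists, the 3 highest members without a counterpart and the 3 windows of 5 Mb with most members; other positions were chosen after their values were seen. Alternatives were other percentiles, called peaks counted as 1 with the percentile taken over called peaks, and other definitions of overlap.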

Additional observations from a re-analysis of the deposited data

Results flagged for a closer look

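Intervals outside chromosomes 1 to 22 were not eligible as members, and some had signal above the thresholds. The mitochondrial interval had a maximum of 172 times the list median in treated knockout, 176 times in treated wild type, 159 times in untreated knockout and 135 times in untreated wild type. Chromosome X had 55 of 324 intervals at or above the threshold in treated knockout, 0 of 21 in treated wild type, 25 of 351 in untreated knockout and 18 of 262 in untreated wild type. Over chromosomes 1 to 22 the shares were 1.28, 1.1, 1.57 and 1.31% of intervals in the same order. The chromosome X intervals came from 8, 0, 24 and 7 called peaks. No untargeted control list was used here against which these values could be set.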

How the results depend on the processing

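No paired analysis was possible because each list joins both replicates, and for the same reason no replicate could be left out. In all 8 pairs of lists and under all 7 definitions the member share with a counterpart exceeded that of the other intervals, by 10.4 to 75.2 percentage points. The shares themselves moved. The following shares are in the order untreated knockout in untreated wild type and the reverse, treated knockout in treated wild type and the reverse, treated wild type in untreated wild type and the reverse, and treated knockout in untreated knockout and the reverse. With an overlap of 50% of both intervals they were 29.3, 39.6, 45.7, 45.3, 22.6, 13.2, 32.6 and 30.4%. At the 98th percentile the last 6 were 40.1, 46, 68.2, 45.2, 79.1 and 51.6%. With the top 0.5% as members, treated knockout in treated wild type and the reverse were 69.4 and 85.2%, untreated in treated wild type 61.5%, treated knockout in untreated knockout 97.2% and the reverse 73.8%. By the midpoint, untreated knockout in untreated wild type and the reverse were 71.2 and 61.9%, untreated in treated wild type 28.4% and untreated in treated knockout 42.9%. With a gap of up to 1000 bp, untreated knockout in untreated wild type was 85.9%, treated wild type in treated knockout 79.2%, treated knockout in untreated knockout 98.9% and the reverse 69.1%. With called peaks counted as 1 and the percentile taken over called peaks, which changes the members, untreated wild type in untreated knockout was 94.9%. Treated wild type in untreated wild type was 84.3% and the reverse 68.4%, and treated knockout in untreated knockout 80.9%. Without the shared loci, an alternative added after the data were seen, treated knockout in treated wild type was 35.7% and the reverse 50%.

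Members numbered 182, 261, 450 and 303 at the 98th percentile and 36, 61, 84 and 78 with the top 0.5%, for treated knockout, treated wild type, untreated knockout and untreated wild type, and 70 called peaks in treated wild type with called peaks counted as 1. Loci in 1, 2 and 3 lists numbered 771, 65 and 14 at the 98th percentile and 127, 11 and 4 with the top 0.5%, and those in 1 and 2 lists 152 and 16 with members joined up to 10000 bp apart. Loci in all 4 lists numbered 15 to 25 under these alternatives, against 20. By called peaks the width ratio of members to the rest was 2 in treated knockout, 3.72 in treated wild type and 5.8 in untreated wild type, since the span of a cut peak is larger than its pieces. The median log2 ratio at the shared loci, scaled by the chromosome 7 locus, was 0.33 for treated against untreated wild type and -0.089 for knockout, against -0.08 and 0.10 by list median, and -0.55 for treated knockout against treated wild type, against -0.07, since that scaling subtracts the log2 ratio of the chromosome 7 locus from every value. Using loci with their maximum inside the locus, also added after the data were seen, left the sign of these medians as it was in all 4 comparisons. Maxima near the threshold differ by 1 step, which limits the order of the lower members.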
